A study of Homo sapiens with 12 samples.

Results

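ER-associated degradation (ERAD) clears misfolded proteins from the endoplasmic reticulum (ER), and the 10 genes described here encode its core machinery: HERPUD1, SEL1L, SYVN1, DERL1, DERL2, DERL3, EDEM1, EDEM2, EDEM3 and OS9. They were taken by name from the 22257 genes in the count tables, with earlier results of these data known. All 10 were found, and all 10 were among the 14416 genes with enough counts to be tested. The study sequenced 12 RNA libraries of LN229, a human glioblastoma line that is established in culture. Cells were kept for 24 hours in 10 mM glucose (4 libraries), in 1 mM glucose with 5 mM acetate (4 libraries) or in 1 mM glucose alone (4 libraries). All groups shared the medium, RPMI with 10% dialyzed serum, and the labels name no other agent and no altered gene. The comparison of 10 mM with 1 mM glucose asks what glucose supply does to ERAD transcripts, and the comparison with acetate asks whether a second carbon source changes them while glucose is low.

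In ERAD, a misfolded protein is first recognised in the ER lumen. The EDEM proteins trim mannose from its N-linked glycans, and lectins such as OS9 read the trimmed glycan and pass the protein to the membrane. There SEL1L holds the lectins to SYVN1 (also called HRD1), a ubiquitin ligase that forms, with the derlins, the path by which the protein leaves the ER. HERPUD1 recruits further components to SYVN1, and the proteasome then degrades the ubiquitinated protein in the cytosol. N-glycans are built from sugars that derive from glucose, and many ERAD genes are known targets of the unfolded protein response, the signalling that answers misfolded proteins in the ER.

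The promoters of 3 genes are shown for the range they cover among these genes: HERPUD1, with the largest difference between glucose levels, SEL1L, with an intermediate difference, and EDEM3, with none that passed the test. Each line gives the 250 bases before the gene start, 5′ to 3′ on the gene's own strand, from RefSeq on GRCh38.p14. The capitals in HERPUD1 mark its match to ERSE-II, an ER stress response element.
HERPUD1 (chr16:56931892-56932141, plus strand): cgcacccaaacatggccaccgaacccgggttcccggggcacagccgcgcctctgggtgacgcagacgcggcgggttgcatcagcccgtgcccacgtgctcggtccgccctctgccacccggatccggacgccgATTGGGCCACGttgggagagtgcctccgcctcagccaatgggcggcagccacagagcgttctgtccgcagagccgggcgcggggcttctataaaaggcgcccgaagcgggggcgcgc
SEL1L (chr14:81533854-81534103, minus strand): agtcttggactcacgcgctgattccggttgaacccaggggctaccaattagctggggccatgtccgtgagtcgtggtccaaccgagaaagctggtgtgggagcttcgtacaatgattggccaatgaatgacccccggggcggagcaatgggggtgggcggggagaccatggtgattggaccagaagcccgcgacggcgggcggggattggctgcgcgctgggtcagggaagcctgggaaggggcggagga
EDEM3 (chr1:184754859-184755108, minus strand): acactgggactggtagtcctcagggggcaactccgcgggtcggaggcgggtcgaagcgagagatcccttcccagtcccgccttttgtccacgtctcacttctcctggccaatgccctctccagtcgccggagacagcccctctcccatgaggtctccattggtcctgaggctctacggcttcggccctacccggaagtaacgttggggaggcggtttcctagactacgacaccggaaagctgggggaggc
A window from 250 bases before to 50 after the start was searched on both strands for 4 elements, and 8 of the 10 genes had such a window in the RefSeq table (HERPUD1, SEL1L, SYVN1, DERL2, EDEM1, EDEM2, EDEM3 and OS9). ERSE-II, spelled ATTGG and CCACG with any 1 base between, was in 19 of 35116 promoter windows (0.0541%) and in 1 of the 8, HERPUD1, where ATTGGGCCACG ran from base -117 to -107 from the start. The ER stress response element ERSE, spelled CCAAT and CCACG with any 9 bases between, was in 27 windows (0.0769%) and in 0 of the 8. The unfolded protein response element UPRE, spelled TGACGTGG, was in 256 windows (0.729%), and the composite element of ATF4, spelled TGATGNAAT, in 348 (0.991%), each with 0 of the 8. ERSE, ERSE-II and, on its other strand, UPRE share the letters CCACG. A match describes these letters and is not a shown binding site, and a missing match says only that these letters are not in this window.

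Depth was even, with 24.41 to 26.02 M counts (M, mega) per library at 10 mM glucose, 26.78 to 27.18 M with acetate and 25.31 to 26.7 M at 1 mM glucose. Of the 12 libraries 2 stood apart, replicate 1 with acetate and replicate 3 at 1 mM glucose. Over 14182 genes, their deviation from each gene's mean over the 12 libraries (log2 CPM) fell with transcript length, with Spearman correlations of -0.481 and -0.486, while the other 10 libraries lay between -0.178 and 0.228. Markers of glial and glioma cells averaged 1 CPM (count per M counts) or more over the 12 libraries for 7 of 9, with a summed level of 5871 to 5992 CPM at 10 mM glucose, 5943 to 6462 CPM with acetate and 6315 to 7674 CPM at 1 mM glucose. The glial markers GFAP and SOX9 were near 0, at means of at most 1.14 and 0.635 CPM. Of markers of other cell types, 1 of 9 blood and endothelial, 1 of 5 epithelial and 4 of 8 neuronal genes averaged 1 CPM or more over the 12 libraries, and HBB and STMN2 were at 0 in every group. The summed neuronal markers were at 60.8 to 69.8 CPM at 10 mM glucose, 137 to 147 CPM with acetate and 134 to 160 CPM at 1 mM glucose. The blood and endothelial markers were at 19.3 to 23.6 CPM at 10 mM glucose, 63.1 to 70.6 CPM with acetate and 55.2 to 65.8 CPM at 1 mM glucose. The epithelial sum was 0.835 to 1.24 CPM at 10 mM glucose, 1.17 to 1.82 CPM with acetate and 1.14 to 1.71 CPM at 1 mM glucose. The neuronal and the blood sum were lower at 10 mM than at 1 mM glucose, but genes within them went both ways in edgeR. Of 4 neuronal genes tested, SYT1 was called lower (log2 fold change -2.1) and SNAP25 higher (0.88). Of 2 blood and endothelial genes tested, CD68 was called lower (-1.52) and VWF, under 1 CPM in every group, higher (1.52). Of the 9 glial genes, 4 were called higher, up to 2.4 for SOX2, and 3 lower, down to -1.56 for OLIG2. The part of these markers in the results was not tested. Levels below are CPM after TMM scaling, with means ± SD over the 4 libraries of a group. In bulk RNA, less transcript per cell and fewer cells with the transcript cannot be told apart. No source states that the replicates were separate cultures, and the p-values therefore reflect only how far these libraries spread, which may be technical.

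Of the 10 ERAD genes, 9 were lower in 10 mM than in 1 mM glucose, and 0 were higher. HERPUD1 fell the most, 17-fold, followed by DERL3, SEL1L and SYVN1, while EDEM3 did not pass the test with all 12 libraries. The test was edgeR's quasi-likelihood F test with Benjamini-Hochberg adjustment over all genes, with calls at an adjusted p under 0.05. Of all genes tested, 33.8% were called lower and 67.5% were called in either direction. The median log2 fold change was -1.38 over the 10 genes and 0 over all genes tested. For the 9 called genes, no library at 10 mM glucose overlapped the 1 mM libraries, against 30.3% of all genes tested that were lower without overlap and 61.5% that did not overlap in either direction.

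**Figure D1:**
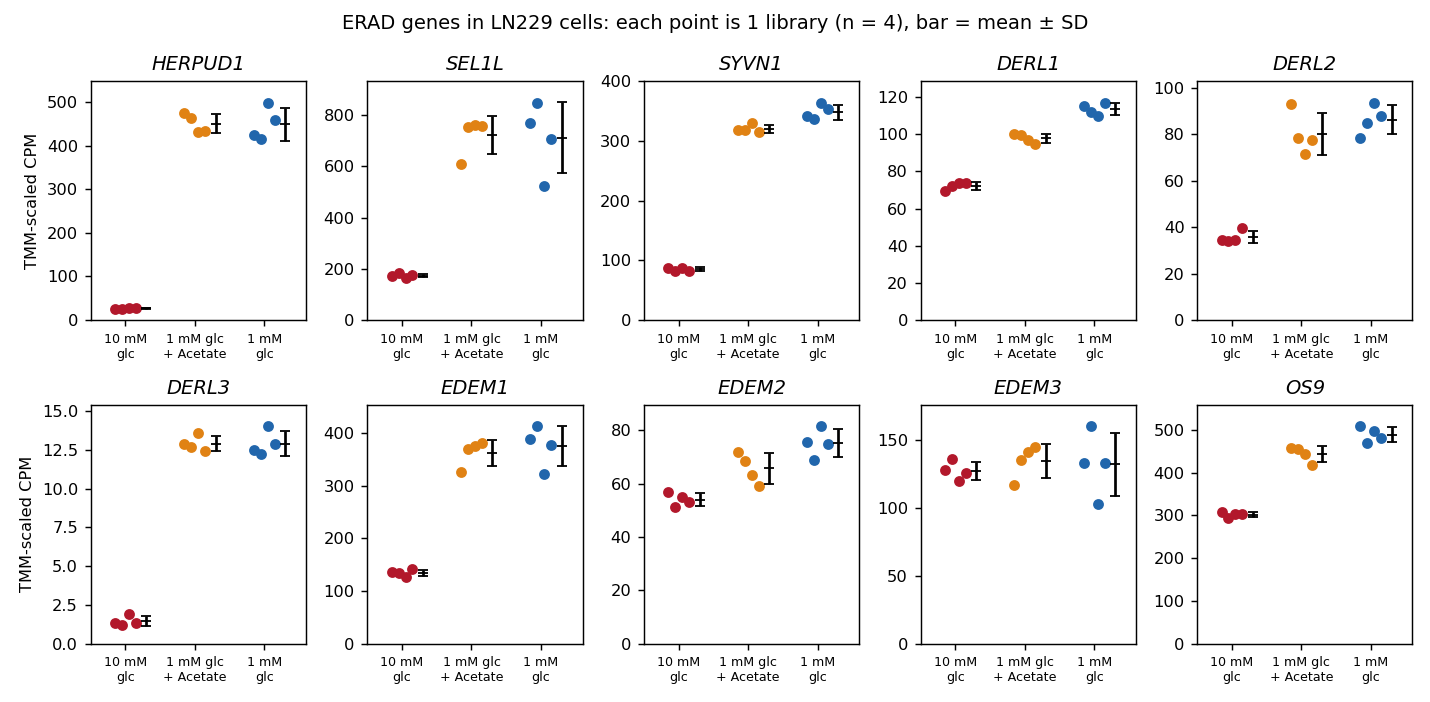
TMM-scaled CPM (y axis, from 0, with a scale of its own in each panel) of each ERAD gene at 10 mM glucose, 1 mM glucose with acetate and 1 mM glucose. Each point is 1 library, and the bar is the mean ± SD of 4. HERPUD1 lies at 25.5 to 28.2 CPM at 10 mM glucose, against 416 to 499 CPM at 1 mM, and the 3 groups of EDEM3 overlap.

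HERPUD1 encodes an ER membrane protein with a ubiquitin-like domain that joins the SYVN1 complex. It had 25.5, 25.7, 26.6 and 28.2 CPM in the libraries at 10 mM glucose, 476, 465, 431 and 433 CPM with acetate, and 424, 416, 499 and 459 CPM at 1 mM glucose. The 10 mM libraries were all low and far from the others, and the libraries with acetate and at 1 mM glucose overlapped. The means were 26.5 ± 1.21 CPM at 10 mM glucose, 451 ± 22.9 CPM with acetate and 450 ± 38.0 CPM at 1 mM glucose (SD, n = 4 each). Between 10 mM and 1 mM glucose the log2 fold change was -4.08 ± 0.07 (SE), with an adjusted p of 9.4e-15 in edgeR. HSPA5, the main lumenal chaperone of the ER (BiP), is given beside these genes and had 1166 to 1192 CPM at 10 mM glucose and 12463 to 13549 CPM at 1 mM glucose. Its log2 fold change was -3.46 ± 0.05 (SE, adjusted p = 4.2e-15 in edgeR).

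The ligase SYVN1 and its adaptor SEL1L were both about 4-fold lower at 10 mM glucose. SYVN1 had 87.4, 82.2, 88 and 82.7 CPM at 10 mM glucose, 318, 318, 330 and 315 CPM with acetate, and 341, 336, 364 and 353 CPM at 1 mM glucose. Its 3 groups did not overlap one another, with the 10 mM libraries by far the lowest. The log2 fold change between 10 mM and 1 mM glucose was -2.03 ± 0.05 (SE, adjusted p = 1.8e-13 in edgeR), a 4.1-fold lower level.

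SEL1L keeps SYVN1 stable and docks the lumenal lectins. It had 171, 182, 165 and 176 CPM at 10 mM glucose, 611, 754, 764 and 758 CPM with acetate, and 770, 849, 525 and 709 CPM at 1 mM glucose. The 10 mM libraries were again apart from the rest, but the 2 libraries that stood apart over transcript length were the lowest of their groups. SEL1L has the longest transcript of the 10 genes, at 7925 bases. SEL1L changed by a log2 fold change of -2.04 ± 0.12 (SE, adjusted p = 1.7e-09 in edgeR), a 4.11-fold lower level, and -2.16 ± 0.05 without those 2 libraries.

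The derlins are rhomboid-like membrane proteins that help move proteins out of the ER, and all 3 were lower at 10 mM glucose. DERL3, the one with the lowest level, had 1.35, 1.23, 1.93 and 1.35 CPM at 10 mM glucose, 12.9, 12.7, 13.6 and 12.4 CPM with acetate, and 12.5, 12.2, 14 and 12.9 CPM at 1 mM glucose. These rest on 34 to 53 counts per library at 10 mM glucose, against 296 to 358 counts at 1 mM glucose, and the groups at the 2 glucose levels did not overlap. DERL3 had a log2 fold change of -3.13 ± 0.11 (SE, adjusted p = 6.6e-12 in edgeR), an 8.75-fold lower level. In the annotation of GENCODE v29, 60.0% of the exonic bases of DERL3 (516 of 860) overlap exons of SMARCB1, a chromatin remodelling subunit, on the opposite strand. Whether the counting used strand is not given in the sources used here, so reads of the 2 genes cannot be told apart in that stretch. SMARCB1 itself averaged 131 CPM at 10 mM glucose and 139 CPM at 1 mM glucose, a log2 fold change of -0.08 ± 0.08.

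DERL2 had 34.3, 34.1, 34.6 and 39.4 CPM at 10 mM glucose, 92.9, 78.3, 71.6 and 77.6 CPM with acetate, and 78.4, 85, 93.5 and 87.6 CPM at 1 mM glucose. Every 10 mM library lay below every other library, while the libraries with acetate and at 1 mM glucose mixed. Its log2 fold change was -1.28 ± 0.08 (SE, adjusted p = 4.7e-09 in edgeR), 2.42-fold lower at 10 mM glucose. DERL1 had 69.4, 72.3, 73.8 and 73.7 CPM at 10 mM glucose, 100, 99.9, 97 and 94.8 CPM with acetate, and 115, 112, 110 and 117 CPM at 1 mM glucose. The 3 groups of DERL1 were in 3 separate bands, with acetate in between. Its log2 fold change was -0.65 ± 0.05 (SE, adjusted p = 1.1e-08 in edgeR), 1.57-fold lower at 10 mM glucose.

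The 3 EDEM genes, which encode the mannose-trimming proteins, spanned fold changes from 2.79-fold lower to a difference that did not pass the test. EDEM1 had 136, 134, 126 and 141 CPM at 10 mM glucose, 325, 369, 374 and 380 CPM with acetate, and 389, 412, 322 and 376 CPM at 1 mM glucose. Its 10 mM libraries were apart from all others, and the log2 fold change was -1.48 ± 0.08 (SE, adjusted p = 3.3e-10 in edgeR), 2.79-fold lower. EDEM2, which carries out the first mannose removal on the glycan, had 56.7, 51.2, 54.8 and 53.1 CPM at 10 mM glucose, 72, 68.6, 63.1 and 59 CPM with acetate, and 75.5, 68.8, 81.4 and 75 CPM at 1 mM glucose. No 10 mM library reached the others, but the distance was small, with a log2 fold change of -0.48 ± 0.07 (SE, adjusted p = 2.4e-05 in edgeR), 1.39-fold lower.

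EDEM3 had 128, 136, 120 and 126 CPM at 10 mM glucose, 117, 135, 141 and 145 CPM with acetate, and 133, 160, 103 and 133 CPM at 1 mM glucose. All 3 groups overlapped, and the lowest value of each of the low-glucose groups was the library that stood apart. Its log2 fold change was -0.05 ± 0.11 (SE, adjusted p = 0.68 in edgeR), with a 95% interval of -0.28 to 0.18. Without the 2 libraries that stood apart, EDEM3 was called lower at 10 mM glucose, with a log2 fold change of -0.16 ± 0.06 (adjusted p = 0.023 in edgeR). The means were then 128 ± 6.67 CPM at 10 mM glucose (n = 4), 140 ± 4.95 CPM with acetate (n = 3) and 142 ± 15.7 CPM at 1 mM glucose (n = 3). Between the glucose levels, EDEM3 was called in 3 of 23 alternative analyses. Without 1 mM replicate 3 alone it was not called (-0.16, adjusted p = 0.1 in edgeR). Its log2 fold change was 0.05 without 1 mM replicate 2 and 0.09 with library totals, neither of them called.

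OS9, the lectin that reads the trimmed glycan, had 307, 294, 303 and 304 CPM at 10 mM glucose, 457, 456, 444 and 418 CPM with acetate, and 508, 469, 497 and 480 CPM at 1 mM glucose. The groups formed 3 separate bands, lowest at 10 mM glucose. The log2 fold change between 10 mM and 1 mM glucose was -0.69 ± 0.05 (SE, adjusted p = 9.9e-09 in edgeR), 1.62-fold lower. An unnamed antisense transcript on the opposite strand overlaps 26.0% of the exonic bases of OS9, and another overlaps 10.2% of EDEM1, so antisense reads are part of the uncertainty of both values.

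**Figure D2:**
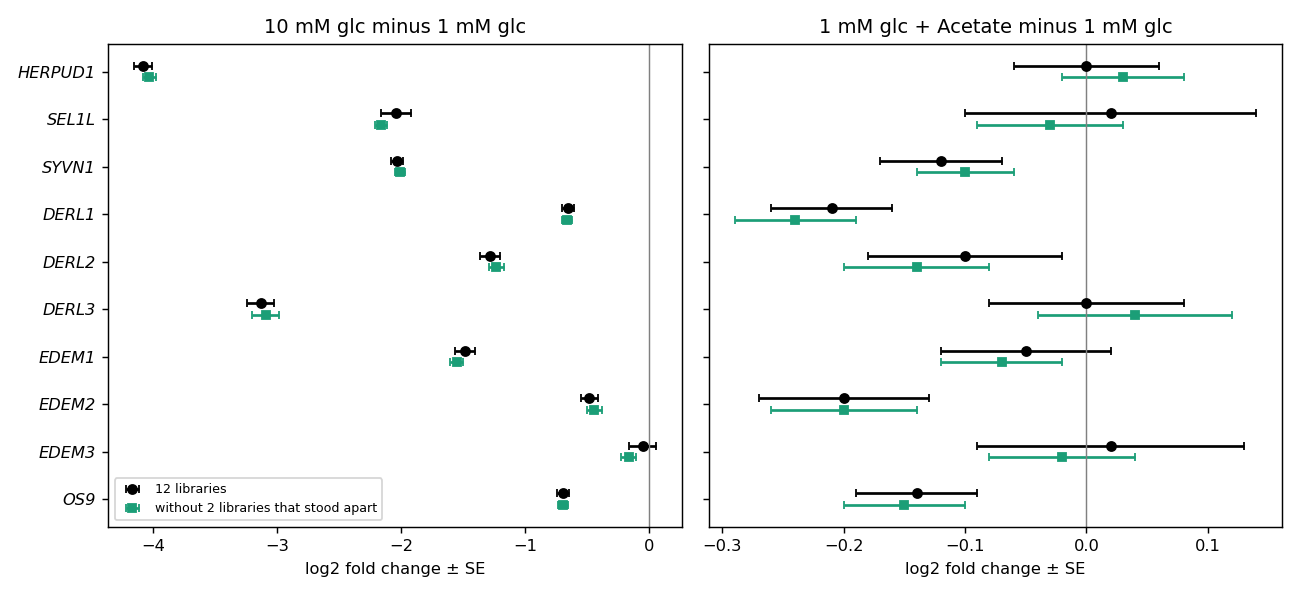
Log2 fold change with its standard error (x axis) of each ERAD gene (y axis) in edgeR, for the comparison of 10 mM with 1 mM glucose on the left and of acetate with 1 mM glucose, on a narrower scale, on the right. Black points use all 12 libraries and green squares leave out the 2 that stood apart; the black points run from -4.08 for HERPUD1 to -0.05 for EDEM3 on the left and from -0.21 to 0.02 on the right.

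The deviations over transcript length showed in the longest ERAD transcripts. Replicate 3 at 1 mM glucose lay below the mean of its other replicates by a log2 difference of -0.56 for SEL1L, -0.47 for EDEM3 and -0.28 for EDEM1, the 3 longest transcripts, and above it by 0.2 for HERPUD1. Replicate 1 with acetate differed from its other replicates by -0.31 for SEL1L, -0.27 for EDEM3 and -0.2 for EDEM1, and by 0.29 for DERL2. What set these libraries apart was not tested. Without both libraries all 10 ERAD genes were called lower at 10 mM than at 1 mM glucose in edgeR, where 36.2% of all genes tested were.

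**Figure D3:**
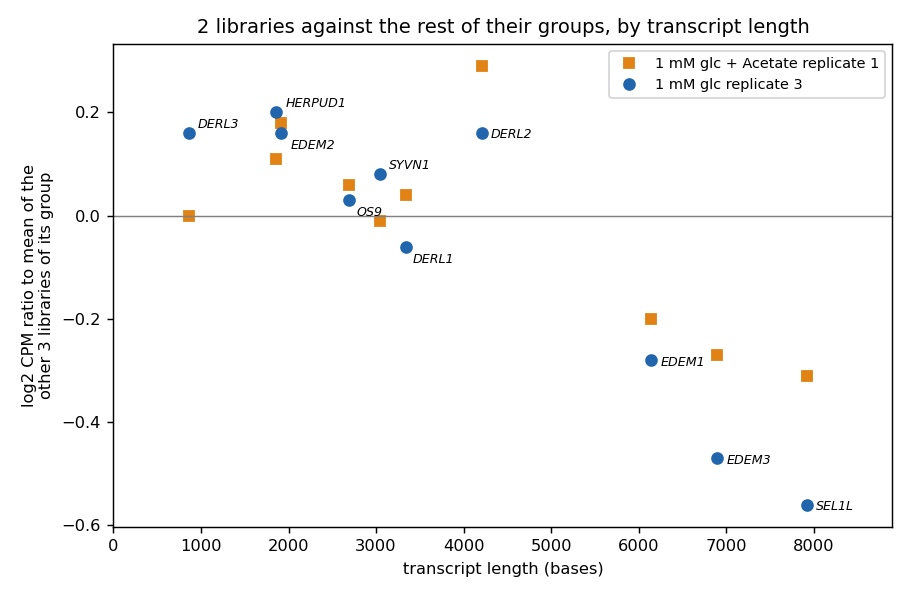
Log2 difference of the libraries that stood apart from the mean of the other replicates of their group (y axis) for each ERAD gene, against its transcript length (x axis). SEL1L, EDEM3 and EDEM1, the longest transcripts, lie below 0 in both libraries, down to -0.56 for SEL1L at 1 mM glucose.

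With acetate, the log2 fold changes of the ERAD genes against 1 mM glucose alone lay between -0.21 and 0.02. One of the 10 genes, DERL1, was called lower with acetate and 0 were called higher, where 7.09% of all genes tested were called lower and 13.7% were called in either direction. DERL1 averaged 98.0 ± 2.59 CPM with acetate and 113 ± 3.14 CPM at 1 mM glucose (SD, n = 4 each), and its libraries did not overlap. This was a log2 fold change of -0.21 ± 0.05 (SE, adjusted p = 0.0071 in edgeR), 1.16-fold lower, with a 95% interval of -0.31 to -0.11. The call held in 23 of 23 alternative analyses, with adjusted p from 1.5e-05 to 0.044. These share most of their libraries, and the choice of the highest total keeps the same DERL1 transcript, so they are not independent checks. At an unadjusted p under 0.05 in edgeR, 4 of the 10 were lower and 0 higher, where 2103 of the 14416 genes tested were lower and 1985 higher. DESeq2 also called 4 of the 10 lower and 0 higher, where it called 1340 of all genes lower and 1046 higher.

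For OS9, SYVN1 and EDEM2 the call turned on the analysis. OS9 averaged 443 ± 18.1 CPM with acetate and 489 ± 17 CPM at 1 mM glucose, and SYVN1 320 ± 6.75 CPM with acetate and 349 ± 12.3 CPM at 1 mM glucose (SD, n = 4 each). In both the groups did not overlap, which was so for 3 of the 10 genes and, in the lower direction, for 8.2% of all genes tested, with 7.35% in the higher direction and 15.6% in either. EDEM2 averaged 65.7 ± 5.78 CPM with acetate and 75.2 ± 5.17 CPM at 1 mM glucose, with overlap. The log2 fold changes in edgeR were -0.14 ± 0.05 for OS9 (adjusted p = 0.067), -0.12 ± 0.05 for SYVN1 (adjusted p = 0.1) and -0.20 ± 0.07 for EDEM2 (adjusted p = 0.075). OS9 and EDEM2 passed the threshold in 6 of 23 alternatives each and SYVN1 in 3 of 23. Leaving out acetate replicate 1 gave an adjusted p of 0.039 for OS9 and 0.022 for EDEM2, and leaving out 1 mM replicate 2 gave 0.048 for OS9 and 0.034 for EDEM2.

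HERPUD1 and DERL3, the genes with the largest glucose differences, had acetate differences near 0. The log2 fold change with acetate was 0.00 ± 0.06 for HERPUD1, with a 95% interval of -0.13 to 0.14, and 0.00 ± 0.08 for DERL3, with an interval of -0.18 to 0.18. SEL1L, at 0.02 ± 0.12, had a wider interval of -0.23 to 0.26, and EDEM3 one of -0.21 to 0.25. The intervals were -0.28 to 0.07 for DERL2 and -0.21 to 0.11 for EDEM1. None of these 6 passed the test in any of the 23 alternatives, which bounds a difference and does not show that the levels were equal. HSPA5 had 12705 to 14123 CPM with acetate and 12463 to 13549 CPM at 1 mM glucose, a log2 fold change of 0.06 ± 0.05 (adjusted p = 0.48 in edgeR). The glucose and acetate comparisons share the 4 libraries at 1 mM glucose, so their values are not independent of each other.

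The direct comparison of 10 mM glucose with acetate tests whether the ERAD genes differed between a full glucose supply and acetate as the added carbon source. Again 9 of the 10 genes were called lower at 10 mM glucose and 0 higher, where 31.8% of all genes tested were called lower and 62.8% were called in either direction. The libraries of those 9 genes did not overlap, which was so for 30.1% of all genes tested in the lower direction and 61% in either. The log2 fold change was -4.09 ± 0.07 (SE) for HERPUD1, with an adjusted p of 9.7e-15 in edgeR, and -3.13 for DERL3 (adjusted p = 1e-11). It was -2.06 for SEL1L, -1.91 for SYVN1, -1.43 for EDEM1 and -1.17 for DERL2. The smallest called differences were -0.55 for OS9, -0.44 for DERL1 and -0.28 ± 0.07 for EDEM2, the last with an adjusted p of 0.0025. EDEM3, at -0.07 (adjusted p = 0.57), was not called with all 12 libraries and was called without the 2 that stood apart (-0.14 ± 0.06, adjusted p = 0.047).

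Levels per base of transcript show how the makeup of the machinery differed between conditions. Per kilobase, HERPUD1 was at 14.2 ± 0.651 CPM at 10 mM glucose, the 8th of the 10 genes, against 241 ± 20.4 CPM at 1 mM glucose, where it was the 1st. OS9 was the 1st at 10 mM glucose, with 112 ± 2.04 CPM per kilobase, and the 2nd at 1 mM glucose, with 182 ± 6.33. EDEM2 was the 2nd at 10 mM glucose, with 28.1 ± 1.22 CPM per kilobase, and the 6th at 1 mM glucose, with 39.2 ± 2.69. SYVN1 was the 3rd in both, with 27.9 ± 0.997 CPM per kilobase at 10 mM and 114 ± 4.05 at 1 mM glucose, so it and EDEM2 did not differ beyond their spread at 10 mM glucose. SEL1L, EDEM1 and DERL1 were also within their spread of one another at 10 mM glucose, at 21.9 ± 0.954, 21.8 ± 0.977 and 21.6 ± 0.607 CPM per kilobase. At 1 mM glucose the means of these 3 were further apart, at 90.0 ± 17.4 for SEL1L, 60.9 ± 6.15 for EDEM1 and 34.0 ± 0.939 for DERL1. The spread of SEL1L includes replicate 3, which stood apart over transcript length, at 525 CPM against 709 to 849 CPM in the others before division by length. EDEM3, at 18.5 ± 0.967 CPM per kilobase at 10 mM glucose and 19.2 ± 3.41 at 1 mM glucose, and DERL2, at 8.45 ± 0.602 at 10 mM glucose and 20.5 ± 1.49 at 1 mM glucose, were among the lowest. DERL3 was the 10th in both, at 1.71 ± 0.366 CPM per kilobase at 10 mM glucose and 15 ± 0.919 at 1 mM glucose. With acetate the levels per kilobase ran from 15 ± 0.559 for DERL3 to 242 ± 12.3 for HERPUD1.

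Ratios between partners, in which the scaling of a library cancels, were compared by an exact two-sided permutation test over libraries, with 8 tests in the family. The log2 ratio of HERPUD1 to its ligase SYVN1 was -1.68 ± 0.09 at 10 mM glucose and 0.36 ± 0.07 at 1 mM glucose (SD, n = 4 each). The groups did not overlap, and the difference of -2.05 gave the smallest p that 4 against 4 allow in the exact permutation test, 0.0286 (adjusted 0.0762). The log2 ratio of SEL1L to SYVN1 was 1.03 ± 0.11 at 10 mM glucose and 1.01 ± 0.35 at 1 mM glucose, a difference of 0.02 that was smaller than either spread (exact p = 0.971). A trend over transcript length does not cancel in a ratio. Replicate 3 at 1 mM glucose, which stood apart over length, had 0.53, against 1.01 to 1.34 in the others of its group. Without the 2 libraries that stood apart the difference was -0.14 (adjusted p = 0.343 in the exact test).

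Within families, the ratios did not overlap between the glucose levels. The log2 ratio of DERL1 to DERL2 was 1.03 ± 0.09 at 10 mM glucose and 0.40 ± 0.13 at 1 mM glucose, and that of EDEM1 to EDEM2 was 1.31 ± 0.10 at 10 mM glucose and 2.31 ± 0.25 at 1 mM glucose (SD, n = 4 each). The differences of 0.63 and -1 were each without overlap, at the smallest exact p of 0.0286 (adjusted 0.0762). An adjusted p under 0.05 was therefore not reached by any ratio. With acetate, the difference from 1 mM glucose was 0.13 for HERPUD1 to SYVN1 (exact p = 0.0571, adjusted 0.114) and between -0.10 and 0.15 for the other 3 (exact p from 0.371 to 0.571).

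**Figure D4:**
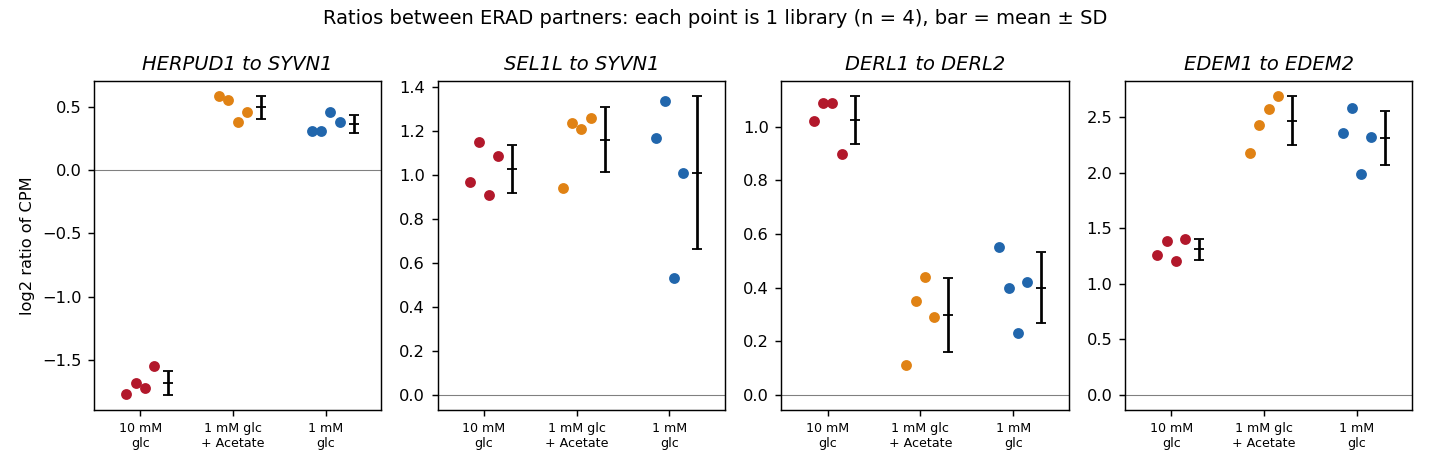
Log2 ratio of TMM-scaled CPM (y axis) between ERAD partners, at 10 mM glucose, 1 mM glucose with acetate and 1 mM glucose. Each point is 1 library, and the bar is the mean ± SD of 4. HERPUD1 to SYVN1 is at -1.77 to -1.55 at 10 mM glucose, against 0.31 to 0.46 at 1 mM, while SEL1L to SYVN1 overlaps between all groups.

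The files list 21 transcripts for the 10 genes, with more than 1 for 6 of them. Tested as separate features, 20 of the 21 were called between 10 mM and 1 mM glucose, 2 between acetate and 1 mM glucose, and 20 between 10 mM glucose and acetate. Among all 24528 transcripts tested, 68.1% were called for the first comparison, 14.4% for the second and 63.6% for the third. Transcripts of a gene can share reads, and 2 of the 3 transcripts of HERPUD1 and both of SYVN1 had identical counts in 12 of 12 libraries, so they are not independent. The transcript that differed most in level from the one used for its gene was one of DERL3, at 37.1% to 54.1% of the counts of the one used. For EDEM2 the marked transcript is a non-coding one, and the coding ones had 97.8% to 99.9% of its counts. The transcript of DERL3 with the lower counts also fell, with a log2 fold change of -3.22 at 10 mM against 1 mM glucose (adjusted p = 6.7e-11 in edgeR).

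Beyond the core machinery, 59 partner genes of ERAD were listed by role, and all 59 were tested. Between 10 mM and 1 mM glucose, 28 were called lower, 11 higher and 20 were not called, with a median log2 fold change of -0.14, where 33.8% of all genes tested were called lower and 33.7% higher. Without the 2 libraries that stood apart the counts were 31 lower, 13 higher and 15 not called, where 36.2% of all genes tested were called lower and 36.5% higher. The partners that recognise proteins in the lumen or trim mannose had 8 of 13 called lower and 1 higher, with a median of -1.13. With all 12 libraries, the mannosidases among them were not called lower. MAN1A1 was the 1 called higher (log2 fold change 0.46), and MAN1B1 (-0.09) and MAN1A2 (-0.23) were not called. Without the 2 libraries that stood apart, this lumenal list had 10 of 13 called lower, 1 higher and 2 not called. The genes added there can include mannosidases, so their lack of a lower call depends on those libraries. The ligases, conjugating enzymes and their membrane partners had 11 of 21 called lower and 6 higher, with a median of -0.16. The factors that extract, shuttle and deubiquitinate proteins in the cytosol had 9 of 25 called lower and 4 higher, with a median of -0.02.

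The partners with the lowest fold change were all lumenal. DNAJB9, a co-chaperone of BiP, had 12.2 to 14.4 CPM at 10 mM glucose and 147 to 172 CPM at 1 mM glucose, a log2 fold change of -3.59 ± 0.07 (SE, adjusted p = 1.8e-14 in edgeR). SDF2L1, which works with ER co-chaperones, had 27.9 to 32.7 CPM at 10 mM glucose and 151 to 237 CPM at 1 mM glucose (log2 fold change -2.67 ± 0.14, adjusted p = 3.5e-10). DNAJB11, another co-chaperone of BiP, had 108 to 119 CPM at 10 mM glucose and 405 to 438 CPM at 1 mM glucose (log2 fold change -1.90 ± 0.07, adjusted p = 5.2e-12). In each of the 3 genes the groups were far apart.

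The highest fold changes were small in comparison. UBL4A, part of the cytosolic complex that holds extracted membrane proteins in solution, had 107 to 121 CPM at 10 mM glucose and 71 to 91 CPM at 1 mM glucose (log2 fold change 0.52 ± 0.07, adjusted p = 1.2e-05 in edgeR). MAN1A1, a mannosidase of the secretory pathway, averaged 22.1 CPM at 10 mM glucose and 16 CPM at 1 mM glucose (log2 fold change 0.46 ± 0.11, adjusted p = 0.0015). USP13, a deubiquitinase, averaged 77.5 CPM at 10 mM glucose and 58.2 CPM at 1 mM glucose (log2 fold change 0.41 ± 0.06, adjusted p = 3.6e-05). None of the 3 had overlapping groups.

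Other partners, chosen after their values were seen, show the steps in between. UBE2J1, the ubiquitin-conjugating enzyme that serves SYVN1, was at 73.2 CPM at 10 mM glucose and 198 CPM at 1 mM glucose (log2 fold change -1.43 ± 0.05, adjusted p = 8.2e-12 in edgeR). ERLEC1, a lectin like OS9, was at 94.1 CPM at 10 mM glucose and 206 CPM at 1 mM glucose (log2 fold change -1.13 ± 0.06, adjusted p = 2.4e-10). VCP, the ATPase that pulls ubiquitinated proteins out of the membrane, did not pass the test between the glucose levels. It was at 544 CPM at 10 mM glucose and 574 CPM at 1 mM glucose (log2 fold change -0.08 ± 0.05, adjusted p = 0.14). With acetate, VCP was at 496 CPM and was called lower than at 1 mM glucose (-0.21 ± 0.05, adjusted p = 0.0071), as were UBE2J1 (-0.20) and ERLEC1 (-0.23). Against acetate, VCP was called higher at 10 mM glucose (0.13, adjusted p = 0.019).

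The 12 ER lumen chaperones were all called lower at 10 mM than at 1 mM glucose, at a median log2 fold change of -1.51, where 33.8% of all genes tested were. Without the 2 libraries that stood apart all 12 were again called lower, where 36.2% of all genes tested were. The 20S proteasome, the core that degrades what ERAD delivers, had 4 of 14 subunits called lower and 2 higher, with a median of -0.11 and a range of -0.55 to 0.23. That is 6 of 14 called, where 67.5% of all genes tested were called in either direction. Without the 2 libraries that stood apart, 4 subunits were called lower, 4 higher and 6 were not called, where 36.2% of all genes tested were called lower and 36.5% higher. With acetate, 8 of the 59 partners were called lower and 0 higher, where 7.09% of all genes tested were called lower and 6.65% higher. At an unadjusted p under 0.05 in edgeR, 13 partners were lower and 2 higher, where 2103 of the 14416 genes tested were lower and 1985 higher. DESeq2 called 10 partners lower and 0 higher, where it called 1340 of all genes lower and 1046 higher. Without the 2 libraries that stood apart 14 were called lower and 4 higher, where 12.8% of all genes tested were then called lower and 13% higher. Beside the same shares of all genes, the ER chaperones had 2 of 12 called lower with acetate and 0 higher, and the 20S proteasome 0 of 14 in edgeR, where 2 were lower at an unadjusted p under 0.05, DESeq2 called 1 lower and 4 were called lower without those 2 libraries.

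**Figure D5:**
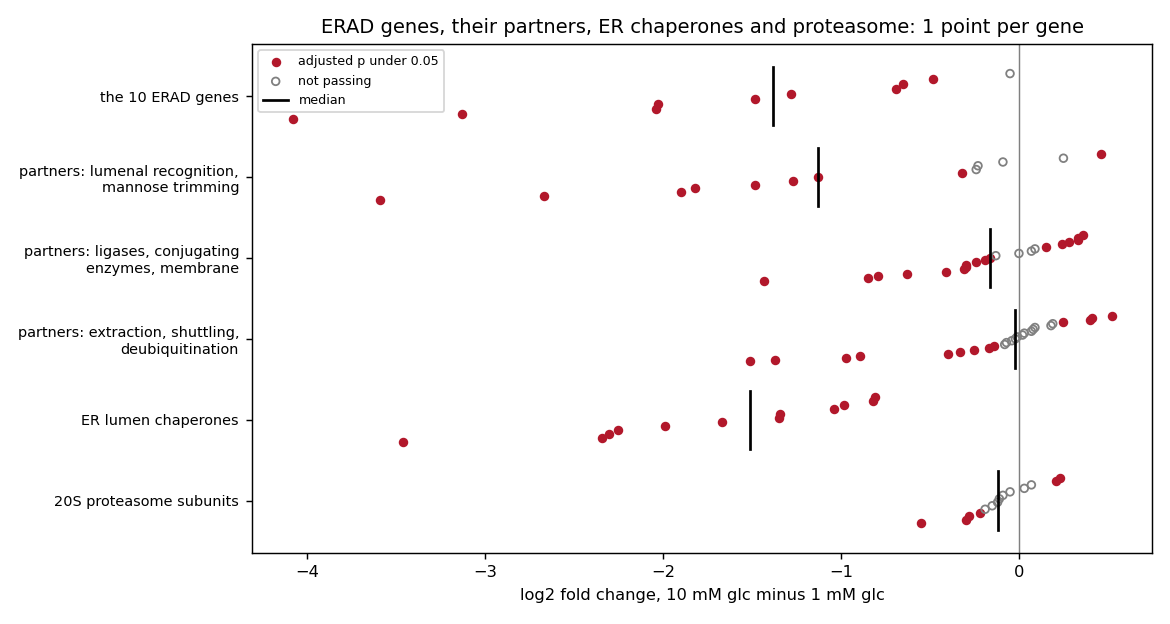
Log2 fold change of 10 mM against 1 mM glucose (x axis) for each gene of the ERAD core, the 3 lists of ERAD partners, the ER lumen chaperones and the 20S proteasome (rows). Each point is 1 gene, filled where the adjusted p is under 0.05, and the bar is the median, from -1.51 for the chaperones and -1.38 for the ERAD core to -0.02 for the extraction and shuttling factors.

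The partners with the lowest fold change with acetate were RNF185, DNAJB9 and SELS. RNF185, an ER membrane ubiquitin ligase, had 59 to 65.4 CPM with acetate and 73.9 to 78.6 CPM at 1 mM glucose (log2 fold change -0.29 ± 0.05, adjusted p = 0.0012 in edgeR). DNAJB9 had 127 to 139 CPM with acetate and 147 to 172 CPM at 1 mM glucose (log2 fold change -0.27 ± 0.06, adjusted p = 0.008). SELS, the selenoprotein that links derlins to VCP, had 109 to 130 CPM with acetate and 133 to 154 CPM at 1 mM glucose (log2 fold change -0.27 ± 0.06, adjusted p = 0.013). The groups of none of the 3 overlapped. The call of SELS was lost with only the 8 libraries compared (adjusted p = 0.054) and without acetate replicate 4 (adjusted p = 0.051).

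The 5 genes whose pattern over the 12 libraries was nearest to that of HERPUD1 were taken from 11180 tested genes with a mean of at least 5 CPM, by Euclidean distance of log2 CPM centred per gene. They were TRIB3, a pseudokinase, at a distance of 0.662, TSLP, a cytokine, at 0.704, DDIT3, the transcription factor CHOP, at 0.708, AKNA at 0.742 and STC2, a secreted glycoprotein hormone, at 0.757. DDIT3 had 32.4 to 34.8 CPM at 10 mM glucose, 689 to 918 CPM with acetate and 674 to 863 CPM at 1 mM glucose. TRIB3 had 34 to 37.9 CPM at 10 mM glucose, 503 to 587 CPM with acetate and 646 to 827 CPM at 1 mM glucose. The acetate libraries of TRIB3 did not overlap those at 1 mM glucose, with a log2 fold change of -0.43 ± 0.07 (adjusted p = 0.0016 in edgeR). Likeness here describes these libraries, which differ mainly between the glucose levels.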

How the data were processed

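The authors deposited raw counts per RefSeq transcript for each library, per the files, as whole numbers with no normalization. The submitters' processing notes name hg19, and the sources used here give no aligner, counter or strand setting. One transcript stood for each gene, the one the authors had marked or, with no mark, the one with the highest total. The 10 genes, the lists and the tests were chosen with earlier results of these data known.

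Counts of the 12 libraries were filtered with filterByExpr, scaled by TMM and fitted with 1 mean per group in edgeR 4.0.16 under R 4.3.3. The test was the quasi-likelihood F test, with Benjamini-Hochberg adjustment over 14416 genes. The common biological coefficient of variation was 8.51%. A positive log2 fold change is higher in the group named first, and its SE comes from the F statistic. Ratios of log2 CPM were compared by exact permutation tests in Python 3.11.15. Transcript lengths and exon overlaps came from GENCODE v29, and promoters from RefSeq. The procedure was tested on simulated data.

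Named genes are the 10 core genes, HSPA5, the 3 called partners at either end of the fold changes in the glucose and the acetate comparison (no partner was called higher with acetate), and the 5 genes nearest to HERPUD1. Others were chosen after their values were seen. The alternatives were DESeq2 1.42.0, other scalings and filters, the replicate number as a block, a fit of only the 8 libraries compared, the transcript with the highest total, leaving out libraries, and, chosen after seeing the data, a spline (5 degrees of freedom) that took out, library by library, the dependence on transcript length and GC.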

Additional observations from a re-analysis of the deposited data

Results flagged for a closer look

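Of 84 groups of 4 values checked, 4 had a library far from the others of its group, where chance alone flags about 1 in 20 groups. SEL1L was at 611 CPM in acetate replicate 1, against 754 to 764 CPM in the other 3 libraries with acetate. In the same library the log2 ratio of SEL1L to SYVN1 was 0.94, against 1.21 to 1.26 in the other 3. This library is 1 of the 2 that stood apart over transcript length. DERL2 was at 39.4 CPM in 10 mM glucose replicate 4, against 34.1 to 34.6 CPM in the other 3 libraries at 10 mM glucose. SDF2L1 was at 32.7 CPM in 10 mM glucose replicate 3, against 27.9 to 28.7 CPM in the other 3.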

How the results depend on the processing

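Between 10 mM glucose and either low-glucose group, 9 of the 10 ERAD genes were called lower in every alternative, and EDEM3 as well without the 2 libraries that stood apart and with the trend over length and GC content removed, with or without the block. With acetate against 1 mM glucose, 1 ERAD gene was called with the main settings, 4 with DESeq2, 3 without the 2 libraries, 4 with the trend removed, 4 with the trend removed and the block, and 1 to 3 when each library was left out (3 without acetate replicate 1 or 1 mM replicate 2). Over all genes that comparison had 1980 calls with the main settings and 2386 with DESeq2. It had 1056 with only its 8 libraries, 3728 without the 2 libraries, 3903 with the trend removed and 3538 with the trend removed and the block. With each library left out it had 1196 to 2956: 1294 without 1 mM replicate 1, 1278 without 1 mM replicate 4, 1318 without acetate replicate 3 and 1196 without acetate replicate 4. The cause was not tested. No called value of a named gene changed direction. Using library totals moved the median of all genes by 0.14 between 10 mM and 1 mM glucose, and the calls that were higher made up 63.3% there against 49.9% with TMM. With library totals the split was 60.8% against 49.4% between 10 mM glucose and acetate, and 65.2% against 48.4% between acetate and 1 mM glucose.

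Replicate numbers showed no clear pairing of the libraries: deviations of same-numbered libraries correlated at -0.365 to 0.27, and those of other pairs at -0.547 to 0.591. The trend over transcript length was left in these deviations, so a smaller effect shared by replicate number could be missed. With the replicate number as a block, 9, 1 and 9 ERAD genes were called for 10 mM against 1 mM glucose, for acetate against 1 mM glucose and for 10 mM glucose against acetate, with 9613, 1780 and 8899 calls over all genes. The call of DERL1 with acetate held with the block, at a log2 fold change of -0.21 (adjusted p = 0.02 in edgeR). For the ratios, 4 pairs allow no p below 0.125.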

Other observations

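Among the 12 sensors and factors of the unfolded protein response, 9 were called lower and 2 higher at 10 mM than at 1 mM glucose in edgeR, with a median log2 fold change of -0.79, where 33.8% of all genes tested were called lower and 33.7% higher. Without the 2 libraries that stood apart, 9 were called lower and 3 higher, where 36.2% of all genes tested were called lower and 36.5% higher. The members named here were chosen after their values were seen. All 3 sensors were lower at 10 mM glucose. ERN1 (IRE1) averaged 6.95 CPM at 10 mM glucose and 30.8 CPM at 1 mM glucose, with a log2 fold change of -2.15 ± 0.26 (SE, adjusted p = 4e-06). EIF2AK3 (PERK) averaged 27.8 CPM at 10 mM glucose and 66.0 CPM at 1 mM glucose (log2 fold change -1.24 ± 0.09, adjusted p = 1.1e-08). ATF6 averaged 83.9 CPM at 10 mM glucose and 139 CPM at 1 mM glucose (log2 fold change -0.73 ± 0.06, adjusted p = 1e-07). With all 12 libraries, the relative ATF6B did not pass the test (log2 fold change 0.11 ± 0.06, adjusted p = 0.12). Without the 2 that stood apart, 0 of the 12 genes were left uncalled, so its result turned on those libraries. The proteases that cleave ATF6 were called slightly higher at 10 mM glucose, at 0.18 ± 0.06 for MBTPS1 (adjusted p = 0.017) and 0.21 ± 0.07 for MBTPS2 (adjusted p = 0.019).

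With acetate, 2 of these 12 genes were called lower and 0 higher in edgeR, and at an unadjusted p under 0.05 and in DESeq2 the counts were also 2 and 0. Without the 2 libraries that stood apart 2 were called lower and 2 higher. Of all genes tested, 7.09% were called lower and 6.65% higher with all libraries, and 12.8% lower and 13% higher without those 2. At an unadjusted p under 0.05 in edgeR, 2103 of the 14416 genes tested were lower and 1985 higher, and DESeq2 called 1340 lower and 1046 higher. XBP1, the transcription factor downstream of ERN1 that is known to drive ERAD genes, averaged 378 CPM with acetate and 469 CPM at 1 mM glucose (log2 fold change -0.31 ± 0.06, adjusted p = 0.0027). CREB3, a membrane-bound transcription factor, averaged 57.5 CPM with acetate and 69.0 CPM at 1 mM glucose (log2 fold change -0.26 ± 0.08, adjusted p = 0.033).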
